A study of Mus musculus with 11 samples.

Results

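The receptors and anchors of fast and slow inhibition were examined in J-RGCs, a type of retinal ganglion cell (RGC), as 27 genes of the 24421 counted. The genes were chosen by symbol: 16 subunits of ionotropic GABA receptors (5 alpha, 2 beta, 2 gamma, 3 rho and 4 others), 5 glycine receptor subunits, both GABA-B receptor subunits, gephyrin and the 3 genes of the GABARAP family. Each symbol matched 1 row in every file. RNA was sequenced from sorted cells of WT (control) and Tbr1 KO mice, and the comparison asks how transcript levels in this cell type differ when the T-box transcription factor gene Tbr1 is mutated. Both genotypes had a mixed background of C57BL/6 and CD1, were taken at postnatal day 4 to 5, and carried green fluorescent protein in J-RGCs from a transgenic line specific to that type. The labels name neither the driver of the transgene nor the part of Tbr1 that was removed, nor which animals were 4 and which 5 days old. Cells were sorted by flow cytometry into pools of 100, and each pool gave 1 library. The 5 control libraries came from 4 animals, lettered a to d; libraries 2 and 3 were pools of control b, library 1 of a, 4 of c and 5 of d. For the 6 KO libraries, also from 4 animals, libraries 1 and 2 were pools of mutant a, 3 and 4 of b, 5 of c and 6 of d. Counts were summed per animal.

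GABA-A receptors are chloride channels of 5 subunits, commonly alpha, beta and gamma, and the alpha subunit sets much of their pharmacology and speed. The rho subunits form channels of their own and are best known from retinal bipolar cells. Glycine receptors are chloride channels of alpha subunits joined by beta, and beta binds gephyrin, the scaffold that holds glycine receptors and many GABA-A receptors at synapses. GABA-B receptors are G protein-coupled and need both of their subunits. GABARAP and its relatives are small ubiquitin-like proteins that act in autophagy and in receptor trafficking. In the retina, amacrine cells release GABA or glycine onto ganglion cell dendrites, so ganglion cells are known for the receptors rather than for making the transmitters.

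Gene counts were 8609845 to 34718693 per library and 24830192 to 55493192 per animal. The sorted pools carried RGC transcripts: all 13 listed RGC markers were counted, and their summed level was 16425 to 18801 CPM (read counts relative to library size, with TMM scaling) in control animals and 16549 to 18481 in mutants. Single markers shifted in both directions within this sum. Pou4f2, at 282 ± 12.8 CPM in controls against 163 ± 37.7 in mutants, was lower in all mutants (SD, n = 4 each). So was Thy1, at 418 ± 35.0 against 316 ± 42.5, while Nefl was at 5030 ± 801 against 6121 ± 512. Of the 13, Jam2 alone passed the edgeR test given below. Jam2, which defines the J-RGC type, was at 528 ± 85.6 CPM in controls against 107 ± 21.5 in mutants (SD, n = 4 each). Tbr1 transcripts were still counted in mutants, at 120 ± 23.4 CPM against 170 ± 16.5 in controls (SD, n = 4 each). Transcripts of other retinal cells were also counted. The photoreceptor list, of which 19 of 20 genes were counted and the widely expressed Gnb1 made up most, summed to 1595 to 6664 CPM in controls and 2819 to 9532 in mutants, and its part in the results was not tested. Amacrine and Müller glia marker sums are given beside Gabra2, the gene whose genotypes did not overlap. In pooled cells, fewer cells of a type and less RNA per cell cannot be told apart. The reads carried no molecular identifiers, so floors cover counting error only.

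Of the 27 genes, 15 were counted in all 11 libraries, 3 were at 0 in every library and 19 passed the filter on low counts. The fit used edgeR's quasi-likelihood test over 13957 genes with adjustment by Benjamini-Hochberg and a call under 0.05. It called 0 of the 19 tested genes, where 0.287% of all tested genes were called. An unadjusted p under 0.05 was reached by 2 of the 19, Gabra2 and Gabra5, and by 7.09% of all tested genes. The animals of the genotypes did not overlap for 1 of the 19, Gabra2, where they did not overlap for 5.06% of all tested genes. DESeq2 called 1 of the 19, Gabra2, where it called 1.12% of the genes it tested. The fitted log2 fold changes of KO over control were positive for 9 and negative for 10, with a median of -0.01 beside -0.00 for all tested genes. The adjusted p-values of the 19 ran from 0.297 to 0.999.

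**Figure D1:**
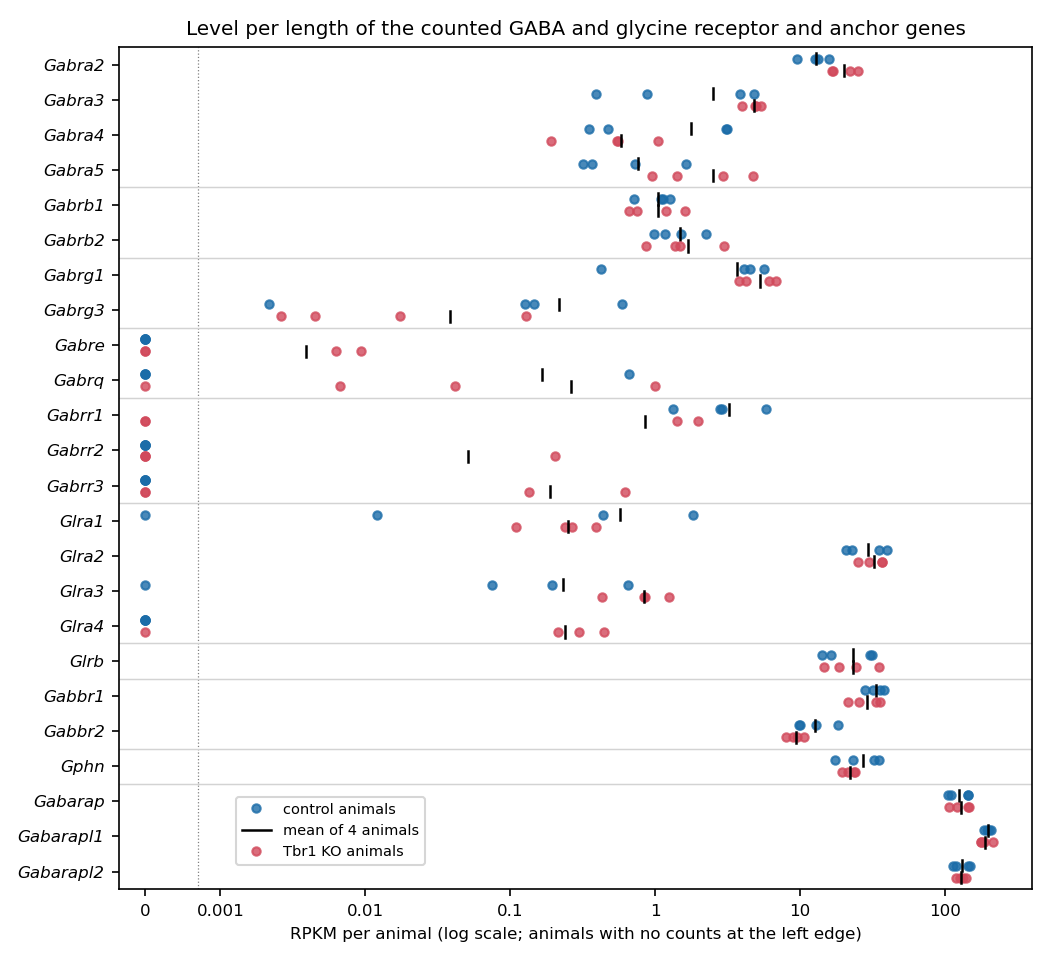
Level per length (RPKM, log axis) of the 24 genes with any count, for each of 4 control animals and 4 Tbr1 KO animals, with black ticks at the means and animals without counts at the left edge. The 3 GABARAP family genes sit at 126 to 198 RPKM in control means. The epsilon and theta genes, Glra4 and the rho genes other than Gabrr1 lie at or near 0 in many animals. Gabrr1 is at 0 in mutants a and d only.

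Levels of different genes are compared per length, as RPKM (CPM per kilobase of annotated exon), and each percentile is among 13398 tested genes with a length. In control animals the GABARAP family stood highest. Gabarapl1 was at 198 ± 9.85 RPKM (98.5th percentile), Gabarapl2 at 132 ± 17.1 and Gabarap at 126 ± 21.3 (SD, n = 4 each). The lowest Gabarapl1 animal, at 186, was above the highest animal of both relatives, which overlapped each other. Below them came Gabbr1 at 33.5 ± 4.57 RPKM, Glra2 at 29.7 ± 9.41, Gphn at 27.1 ± 8.12 and Glrb at 23.1 ± 9.06. These 4 neighbours in the order did not differ beyond their spread between animals. Gabra2, at 12.9 ± 2.55 RPKM (72.7th percentile), and Gabbr2, at 12.8 ± 3.98, came next and overlapped each other. All other members had a control mean of 3.67 RPKM or less.

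Gabra2 was the leading gene of the GABA-A alpha subunits, which carry the benzodiazepine site together with gamma. It lies on chr5:70957597-71095849, minus strand (GRCm38). Among the 5 listed alpha genes it held 71.6% ± 4.70 of the summed RPKM in control animals against 72.1% ± 3.29 in mutants (SD, n = 4 each), and the lowest of the 8 animals was at 67.5%. In control animals a to d Gabra2 was at 96.5, 102, 73.5 and 121 CPM. In mutant animals a to d it was at 191, 127, 130 and 170 CPM. All 4 mutants were above all 4 controls, though control d and mutant b were close. The means were 98.3 ± 19.5 and 155 ± 31.4 CPM, a log2 fold change of 0.65 ± 0.18 (SE; 95% interval 0.26 to 1.05). This did not pass in edgeR (unadjusted p = 0.0035, Benjamini-Hochberg adjusted p = 0.297), and DESeq2 gave an adjusted p of 0.0478. An exact two-sided permutation test over animals gave p = 0.0286, the smallest that 4 against 4 animals allow. Any gene whose genotypes do not overlap gets this value, so it adds nothing to the lack of overlap. The pools of mutant animal a were at 152 and 265 CPM, so the highest mutant library came from an animal whose other pool was lower. Of the amacrine list, 12 genes, all counted and with Pax6 making up most, summed to 301 to 325 CPM in controls against 375 to 407 in mutants, without overlap. In edgeR 0 of the 8 tested passed (4 at an unadjusted p under 0.05, 0 in DESeq2). Pax6 and Dab1 were higher in all mutants, Dab1 at 54.2 to 60.7 CPM against 34.3 to 46.3 in controls. Slc6a9, Tfap2b, Lgr5 and the scarce Slc6a5 and Slc32a1 had higher means in mutants, with overlap. The amacrine transcription factor gene Tfap2a was at 0.605 to 2.21 CPM in controls against 0.490 to 1.96 in mutants. Its mean and that of Gad1 were similar between genotypes, and Gad2 and the scarce Chat and Th had lower means in mutants. The 14 Müller glia and progenitor markers, all counted, summed to 356 to 514 CPM in controls against 507 to 805 in mutants, with mutant d below control b, and 2 of 13 tested (Clu and Dkk3) passed the edgeR test. The part of these cells in the Gabra2 level was not tested.

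Gabra2, Gabrg1, Gabra4 and Gabrb1 are neighbours within 1.40 Mb of chromosome 5 (70751047 to 72149037), yet their levels and their spread between animals differed. The 250 bases upstream of the annotated starts of Gabra2 and Gabrg1, together with those of Glra2, the leading glycine receptor gene, are shown because the 3 windows differ in base composition. They are RefSeq sequences on GRCm38.p6, all read on the minus strand 5′ to 3′, with CG dinucleotides in capitals: Gabra2 from chr5:71095850-71096099, Gabrg1 from chr5:70842618-70842867 and Glra2 from chrX:165327394-165327643.
Gabra2: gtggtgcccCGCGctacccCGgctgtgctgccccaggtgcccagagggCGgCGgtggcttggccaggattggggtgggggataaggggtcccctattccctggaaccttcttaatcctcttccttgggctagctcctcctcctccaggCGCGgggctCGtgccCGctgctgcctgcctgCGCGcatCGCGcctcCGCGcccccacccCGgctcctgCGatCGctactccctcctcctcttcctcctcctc
Gabrg1: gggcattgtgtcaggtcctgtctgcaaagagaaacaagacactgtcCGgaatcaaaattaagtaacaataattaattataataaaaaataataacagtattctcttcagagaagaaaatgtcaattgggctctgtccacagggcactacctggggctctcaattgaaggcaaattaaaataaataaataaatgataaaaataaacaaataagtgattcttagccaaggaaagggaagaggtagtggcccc
Glra2: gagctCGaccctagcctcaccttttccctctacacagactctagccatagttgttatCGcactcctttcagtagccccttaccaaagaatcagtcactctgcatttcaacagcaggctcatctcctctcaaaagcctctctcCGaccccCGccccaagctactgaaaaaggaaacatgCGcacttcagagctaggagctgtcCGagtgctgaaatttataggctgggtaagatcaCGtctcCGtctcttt
The Gabra2 window was 70% G or C with 18 CG dinucleotides, the Gabrg1 window 35.6% with 1, and the Glra2 window 50.4% with 8. Over all 32851 windows of this length the medians were 52.4% and 6, and over the 29 windows found for 25 of the listed genes 54.0% and 8. The letters AGGTGTGA, a core sequence associated with T-box factors, were searched on both strands. They were in 1.12% of all windows (368) and in 0 of the 29.

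The other alpha genes were lower and spread widely. Gabra3 (chrX:72432681-72656848), whose subunit is known from early development, was at 19.0, 15.2, 1.54 and 3.45 CPM in control animals a to d and at 21.0, 19.2, 15.6 and 19.5 in mutants. The mutants lay close together, while controls split into a high pair (a and b) and a low pair (c and d). The pools of control b differed, at 17.7 and 6.17 CPM. The fit gave a log2 fold change of 0.94 ± 0.61 (SE; 95% interval -0.39 to 2.27), and edgeR's adjusted p was 0.861. Gabra4 (chr5:71569749-71658308) split the other way. It was at 2.14, 2.90, 19.2 and 18.8 CPM in control animals a to d and at 1.16, 3.34, 3.38 and 6.33 in mutants, so control animals c and d alone were high. Its log2 fold change was -1.60 ± 0.76 (SE; 95% interval -3.26 to 0.06), with an edgeR adjusted p of 0.728. Its exons share 196 bases (chr5:71658113-71658308) with Gabrb1 on the opposite strand, and reads there cannot be assigned to 1 gene without strand. Gabra5 (chr7:57407672-57510059), whose subunit is known from extrasynaptic receptors, was at 1.09, 4.87, 2.18 and 0.942 CPM in control animals and at 8.69, 2.85, 4.21 and 14.0 in mutants. Control b lay above mutants b and c, so the genotypes overlapped. Fitted over animals, the log2 fold change was 1.71 ± 0.74 (SE; 95% interval 0.11 to 3.31), with unadjusted p = 0.0382 and adjusted p = 0.669 in edgeR. Gabra5 overlaps the antisense gene Gm9962. Gabra6, best known from cerebellar granule cells, had 0 counts in all libraries.

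**Figure D2:**
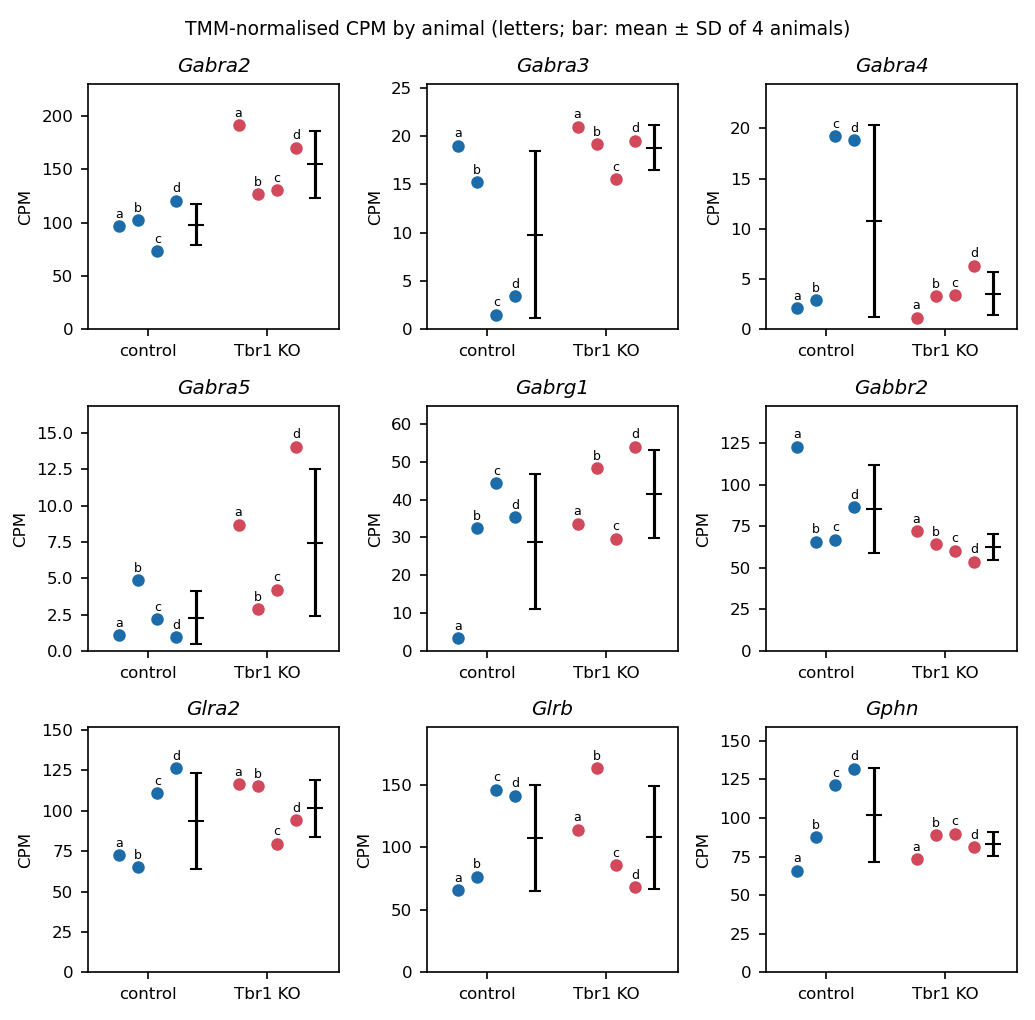
TMM-normalised CPM of 9 genes in the 4 control and 4 Tbr1 KO animals (letters), each panel on its own linear axis from 0, with bars at the mean ± SD. Gabra2 is the panel in which every mutant, from 127 CPM up, lies above every control, up to 121 CPM; control animals c and d stand apart from a and b for Gabra3, Gabra4 and Glrb.

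Both beta genes, whose subunits bind GABA together with alpha, were counted in every library at low levels per length. Gabrb1 (chr5:71658113-72149037) was at 9.96, 15.2, 15.7 and 17.5 CPM in control animals a to d and at 10.3, 9.21, 16.4 and 22.2 in mutants, with complete overlap. The log2 fold change was -0.01 ± 0.35 (SE; 95% interval -0.76 to 0.75). Gabrb2 (chr11:42419757-42629028) was at 6.25, 9.61, 7.46 and 14.3 CPM in controls and at 8.69, 5.54, 19.2 and 9.40 in mutants. It also overlapped, with a log2 fold change of 0.18 ± 0.44 (SE; 95% interval -0.78 to 1.15). In control RPKM they were alike, at 1.05 ± 0.233 for Gabrb1 and 1.48 ± 0.561 for Gabrb2 (SD, n = 4 each).

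Gabrg1 (chr5:70751047-70842617), a gamma subunit gene that can take the place of the more widespread gamma subunit, led its class at 3.67 ± 2.26 RPKM in controls (SD, n = 4). It was at 3.31, 32.4, 44.4 and 35.4 CPM in control animals a to d and at 33.6, 48.4, 29.7 and 54.0 in mutants. Control a alone was low, and the other animals of both genotypes overlapped. The fit gave a log2 fold change of 0.52 ± 0.53 (SE; 95% interval -0.64 to 1.68), and 0.15 without control a. Gabrg3 (chr7:56716465-57387188) was scarce, with 283 counts over control animals and 80 over mutants. It was at 7.02, 0.0259, 1.74 and 1.51 CPM in control animals and at 1.54, 0.0538, 0.207 and 0.0313 in mutants, so animals of 1 genotype differed more than the genotypes did. Its log2 fold change was -2.48 ± 1.57 (SE; 95% interval -5.88 to 0.93).

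The delta and pi genes, Gabrd and Gabrp, had 0 counts in every library, as did Gabra6. A count of 0 allows up to 0.0231 CPM over the control animals together and up to 0.0180 CPM over the mutants. These floors are 3 counts over the group totals after the filter on low counts and TMM scaling. Before both steps the totals were 130810533 gene counts in controls and 165486267 in mutants. Gabre, the epsilon gene, had 0 control counts and 3 mutant counts in 2 libraries, which is at the floor. Gabrq, the theta gene, had 113 control counts in 1 library and 192 mutant counts in 4. Its level rested on single animals: control d at 3.55 CPM with the other controls at 0, and mutant c at 5.34 CPM with the other mutants at 0 to 0.223.

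**Figure D3:**
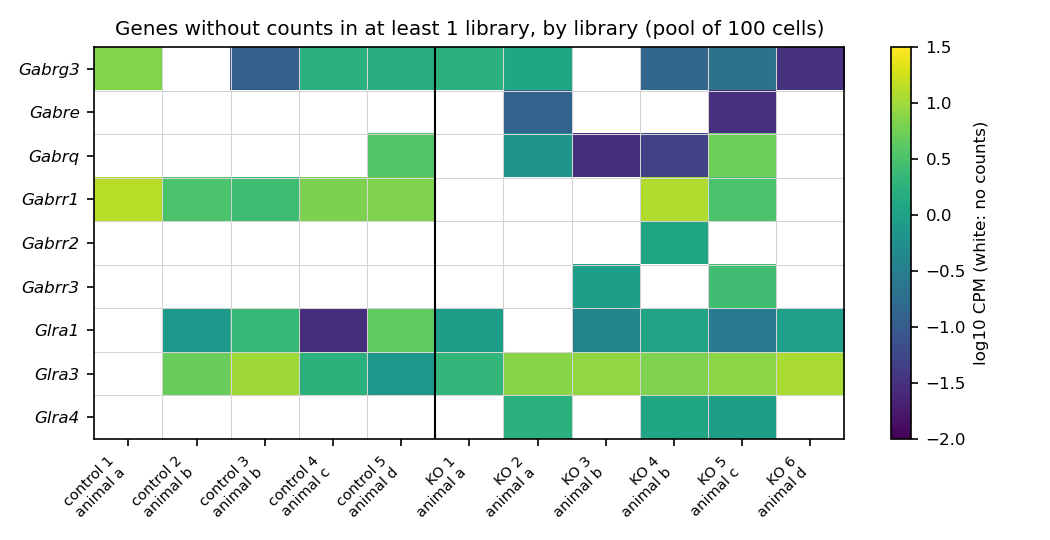
log10 CPM of the 9 genes that were counted in some libraries and not in others, for each of 11 libraries (pools of 100 cells) with the animal below its name; white marks no counts and the black line parts control from KO. Gabrr1 is filled in all 5 control libraries and in 2 of 6 KO libraries, KO 4 and KO 5.

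Among the rho genes, Gabrr1 (chr4:33132521-33163588) was the 1 counted in controls. It was at 13.4, 3.06, 6.39 and 6.66 CPM in control animals a to d and at 0, 4.54, 3.23 and 0 in mutants. By library it was counted in 5 of 5 controls and 2 of 6 mutants. The pools of mutant animal b were at 0 and 12.1 CPM, so the gap between these pools was nearly as wide as the range over all animals. Its log2 fold change was -1.92 ± 1.37 (SE; 95% interval -4.90 to 1.06), with an edgeR adjusted p of 0.885. The bipolar marker Grm6 was at 0 to 0.659 CPM in controls against 0 to 5.22 in mutants. All 11 bipolar markers summed to 1200, 1040, 845 and 871 CPM in controls a to d against 781, 722, 893 and 957 in mutants. Most of this sum was Isl1, also on the RGC list. Isl1 was at 1141, 974, 787 and 775 CPM in controls against 719, 629, 627 and 821 in mutants. The lower values of the sum in mutants were those of Isl1. What remained without Isl1 was largest in mutants c and d and overlapped among the other animals. The part of bipolar cells in the Gabrr1 level was not tested. Gabrr2 had 24 counts in 1 mutant library and Gabrr3 122 counts in 2, with 0 in controls. Over the groups these are at least 6.24-fold and at least 31.7-fold higher than the control floor of 3 counts. With no filter on low counts, edgeR's adjusted p was 0.558 for Gabrr2 and 0.550 for Gabrr3. Gabrr3 overlaps a non-coding gene on the opposite strand.

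Glra2, the alpha subunit known from developing neurons, was nearly the sole glycine receptor alpha transcript. It lies on chrX:165129017-165327393, minus strand. It held 97.5% ± 2.62 of the summed RPKM of the 4 alpha genes in controls against 95.9% ± 1.30 in mutants (SD, n = 4 each). In control animals a to d it was at 72.3, 65.0, 111 and 126 CPM, and in mutants at 117, 115, 79.7 and 94.4. Control animals a and b were the lowest of the 8 and control d the highest, with control c and the mutants between. Fitted over animals, the log2 fold change was 0.12 ± 0.22 (SE; 95% interval -0.36 to 0.59), with an edgeR adjusted p of 0.977. Glrb (chr3:80843599-80913660), the beta subunit that binds gephyrin, was at 65.8, 76.8, 146 and 141 CPM in controls and at 114, 163, 86.0 and 68.4 in mutants. It was spread from low to high in both genotypes, and the means were equal to 3 digits, at 108 ± 42.2 and 108 ± 41.4 CPM (SD, n = 4 each). The log2 fold change was 0.01 ± 0.30 (SE; 95% interval -0.65 to 0.66).

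The remaining glycine alpha genes were scarce. Glra3 (chr8:55940460-56130070) was at 0, 6.03, 1.80 and 0.691 CPM in control animals a to d and at 3.99, 7.82, 7.74 and 11.4 in mutants. Of the controls, b lay among the mutants and the other 3 lay below them all. The fit gave a log2 fold change of 1.85 ± 1.07 (SE; 95% interval -0.48 to 4.18), with an edgeR adjusted p of 0.823. Glra1, the adult alpha subunit of spinal cord and brain stem, was at 0 to 4.43 CPM in controls against 0.267 to 0.940 in mutants, with a log2 fold change of -1.18 ± 1.55 (SE). Glra4 had 0 counts in controls and 81 in 3 mutant libraries, at least 21.1-fold higher over the groups than the floor of 3 counts. With no filter on low counts, edgeR gave Glra4 an adjusted p of 0.550.

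The GABA-B subunit genes were counted in every library. Gabbr1 (chr17:37045966-37075067), whose subunit binds GABA, was at 279, 217, 247 and 297 CPM in control animals a to d and at 259, 278, 199 and 167 in mutants. Mutants c and d were the lowest of the 8 animals, and mutants a and b lay within the controls. Its log2 fold change was -0.20 ± 0.17 (SE; 95% interval -0.57 to 0.16). Gabbr2 (chr4:46662305-46991873), whose subunit couples to the G protein, was at 123, 65.7, 66.8 and 86.5 CPM in controls and at 71.8, 64.1, 60.3 and 53.7 in mutants. Of the mutants, a alone reached into the control range. Fitted over animals, the log2 fold change was -0.45 ± 0.21 (SE; 95% interval -0.90 to 0.0014), with unadjusted p = 0.0506 and adjusted p = 0.707 in edgeR. In control RPKM, Gabbr1 was at 33.5 ± 4.57 and Gabbr2 at 12.8 ± 3.98 (SD, n = 4 each), so the lowest Gabbr1 animal, at 28.0, was above the highest Gabbr2 animal, at 18.3.

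Gphn (chr12:78226379-78684772), which encodes gephyrin, was at 65.7, 87.7, 121 and 132 CPM in control animals a to d and at 73.5, 88.6, 89.9 and 80.9 in mutants. The controls were spread around the mutants, with c and d above all of them and a below. The log2 fold change was -0.29 ± 0.20 (SE; 95% interval -0.73 to 0.15), with an edgeR adjusted p of 0.881. The GABARAP family had the narrowest intervals of the 19 tested genes. Gabarapl1 was at 391, 405, 422 and 375 CPM in controls and at 434, 376, 357 and 359 in mutants, with a log2 fold change of -0.06 ± 0.10 (SE; 95% interval -0.28 to 0.16). Gabarapl2 was at 337, 344, 266 and 280 CPM in controls and at 295, 278, 311 and 326 in mutants, with a log2 fold change of -0.02 ± 0.12 (SE; 95% interval -0.27 to 0.23). Gabarap, at 193, 265, 268 and 205 CPM in controls and 271, 223, 197 and 266 in mutants, had a log2 fold change of 0.04 ± 0.15 (SE; 95% interval -0.28 to 0.36). All 3 overlapped between genotypes.

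**Figure D4:**
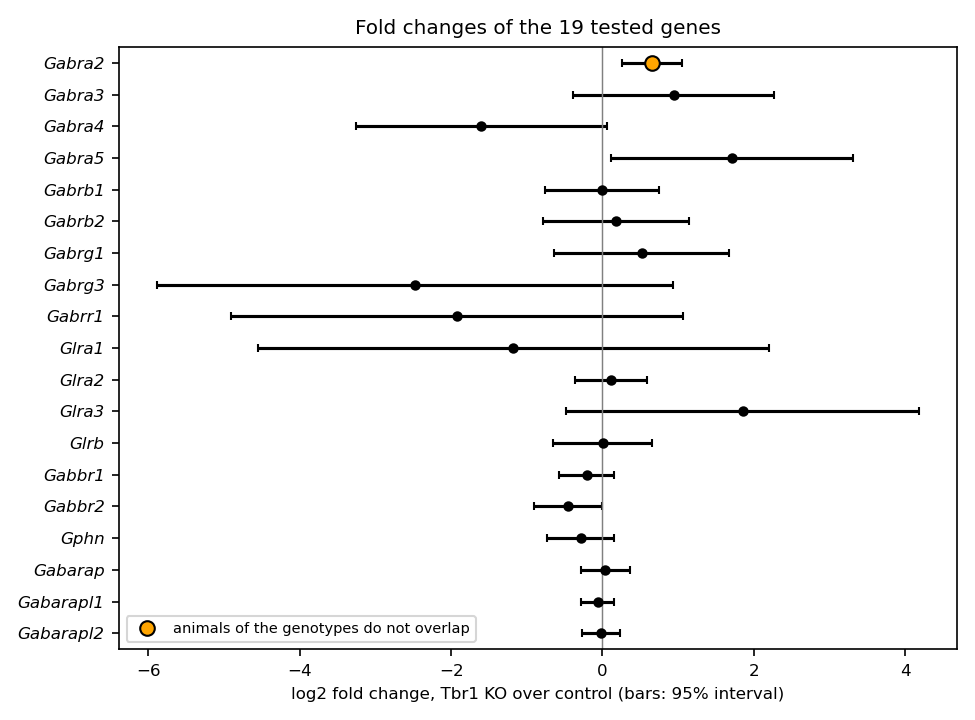
log2 fold change of Tbr1 KO over control with its 95% interval (edgeR) for the 19 tested genes, ordered by role; the orange point marks the gene whose animals do not overlap. The intervals of Gabra2 and Gabra5 lie above 0, and those of the scarce genes Gabrg3, Gabrr1 and Glra1 are the widest.

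Pools from the same animal differed most in scarce genes. In each of the 3 animals with a pair of pools, 5 of the 19 genes differed over 2-fold between pools. Over all tested genes that share was 28.4% in control b, 23.1% in mutant a and 23.0% in mutant b. The largest gap between pools was in Gabrg3 for control b, Glra1 for mutant a and Gabrr1 for mutant b.

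Of 61 other listed genes of inhibitory transmission, all were counted, 59 were tested, 0 rose and 1, Neto2, fell by the edgeR threshold, where 0.287% of all tested genes were called. A total of 13 were at an unadjusted p under 0.05, as were 7.09% of all tested genes. The animals did not overlap for 4 genes with mutants above (among them Mocs1, Kctd16 and Slc6a11) and for Neto2 with mutants below, beside 5.06% of all tested genes in either direction. The median log2 fold change of the 59 was 0.02. By group, 1 of 19 tested anchor genes was called, 0 of 18 trafficking genes, 0 of 13 GABA-B partners and 0 of 9 genes of transmitter synthesis and transport. Unadjusted p-values under 0.05 were held by 3, 2, 4 and 4 of them.

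Neto2 encodes an auxiliary subunit of kainate receptors that is also a known partner of the chloride transporter KCC2. It was at 84.8, 56.4, 79.8 and 49.5 CPM in control animals a to d and at 23.3, 26.1, 20.7 and 31.6 in mutants, with a clear gap between genotypes. It fell by 1.41 ± 0.23 on the log2 scale (SE; 95% interval -1.90 to -0.92; edgeR adjusted p = 0.0201). Without control animal b the edgeR adjusted p was 0.0585, without c 0.0815, and without mutant a, b or c it was 0.0891, 0.0901 and 0.0951, while the log2 fold change stayed at -1.28 or below. Of the other anchor genes, Slitrk3, an organizer of inhibitory synapses, was at 19.5 ± 3.99 CPM in controls against 10.6 ± 4.85 in mutants (SD, n = 4 each), with an edgeR adjusted p of 0.683. Mocs1, which acts in making molybdenum cofactor, a pathway that gephyrin also serves, was at 0.686 to 2.06 CPM in controls against 3.27 to 9.16 in mutants, with an edgeR adjusted p of 0.462. Nlgn2, whose product recruits gephyrin to inhibitory synapses, had a log2 fold change of -0.09.

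A transporter that clears GABA had higher values in mutants without passing the test. Slc6a11, which encodes GAT3, was at 112, 96.2, 121 and 135 CPM in controls and at 180, 224, 186 and 138 in mutants, with control d just below mutant d. Its log2 fold change was 0.65 ± 0.16 (SE; 95% interval 0.30 to 0.9999), with an edgeR adjusted p of 0.203. Slc6a9, a glycine transporter, was at 10.1 ± 4.74 CPM in controls against 23.1 ± 12.2 in mutants (SD, n = 4 each; edgeR adjusted p = 0.549). Müller glia are known for GAT3, and their markers summed to 356 to 514 CPM in controls against 507 to 805 in mutants. The 12 amacrine markers summed to 301 to 325 CPM in controls against 375 to 407 in mutants. Of this, Pax6 was 227 to 238 CPM in controls and 260 to 296 in mutants. Gad2 and the scarce Chat and Th of this list had lower means in mutants, the others higher or similar means. The part of other cells in the transporter levels was not tested. The GABA-making enzyme genes were low: Gad2 was at 18.0 ± 6.13 CPM in controls against 8.53 ± 4.72 in mutants (SD, n = 4 each; edgeR adjusted p = 0.627), and Gad1 at 1.05 and 1.06 CPM.

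Among GABA-B partners, Kctd16, an auxiliary subunit of the receptor, was at 138, 204, 218 and 182 CPM in control animals a to d and at 232, 336, 273 and 288 in mutants. Every mutant lay above every control, by a small margin between control c and mutant a. Fitted over animals, the log2 fold change was 0.61 ± 0.16 (SE; 95% interval 0.26 to 0.95), with an edgeR adjusted p of 0.259. The amacrine marker sum, most of it Pax6, was also higher in all 4 mutants than in all 4 controls. Of the same list, Dab1 was likewise higher in all mutants, at 54.2 to 60.7 CPM against 34.3 to 46.3 in controls. Slc6a9, Tfap2b and Lgr5 had higher means in mutants with overlap, while Gad2 and the scarce Chat and Th had lower means. The part of amacrine cells in the Kctd16 level was not tested. Kctd12, its relative, had a log2 fold change of 0.42 ± 0.19 (edgeR adjusted p = 0.689), and Gnai1, an inhibitory G protein subunit gene, -0.39 ± 0.16 (edgeR adjusted p = 0.620). Marf1, entered on this list in error and kept in its counts, had -0.66 ± 0.26 (edgeR adjusted p = 0.593). Among trafficking genes, Grip1, a scaffold for receptor transport, had a log2 fold change of -0.28 ± 0.12 (edgeR adjusted p = 0.678), and Atg4b, a protease that processes GABARAP proteins, 0.33 ± 0.15 (edgeR adjusted p = 0.689).

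**Figure D5:**
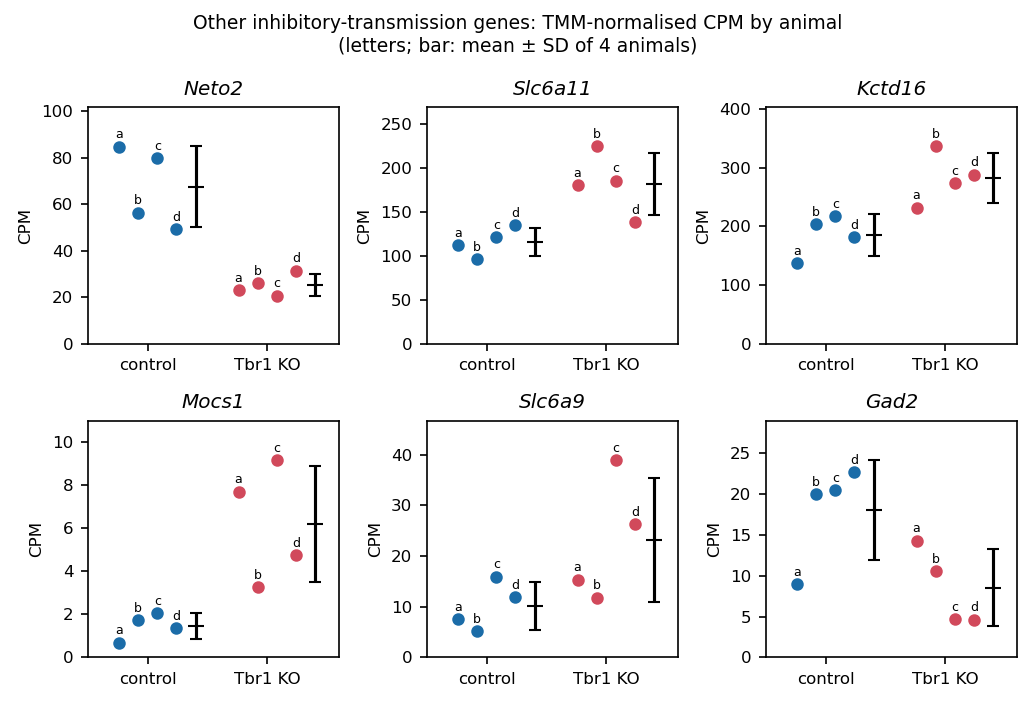
TMM-normalised CPM of 6 other genes of inhibitory transmission in the 4 control and 4 Tbr1 KO animals (letters), each panel on its own linear axis from 0, with bars at the mean ± SD. Neto2 is lower in all mutants (20.7 to 31.6 CPM) than in all controls (49.5 to 84.8), while Slc6a11, Kctd16 and Mocs1 are higher in all mutants and Slc6a9 and Gad2 overlap.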

How the data were processed

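RNA of 11 sorted J-RGC pools, 5 control and 6 Tbr1 KO, was made into libraries with Smart-seq2 and Nextera XT and read from a single end, per the labels' protocols. The authors deposited 1 file of unnormalized counts for each library, with a whole number of reads for every gene symbol. Trimmomatic 0.32, TopHat2 2.0.10 and HTSeq 0.6.1 with mm10 (GRCm38) were used, per the submitters' processing notes; the annotation, the strand option and each tool's role are, in the sources used here, not given. Lines that name no gene were left out of totals and tests.

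Counts of an animal's libraries were summed, giving 4 animals per genotype. Genes were filtered with filterByExpr, TMM factors were computed, and glmQLFTest of edgeR 4.0.16 (quasi-likelihood, robust; R 4.3.3) was run on 13957 genes with p-values adjusted by Benjamini-Hochberg and called under 0.05. The standard error is the log2 fold change divided by the square root of F. Permutation tests used log2 CPM with a prior count of 0.5. RPKM used the union of GENCODE M21 exons (GRCm38), which gave 27 of 27 members a position. On simulated data for this comparison (13635 genes), the fit recovered 53% of 100 genes simulated at 2-fold and 87% of 100 at 4-fold, with 4 false calls. The changed genes were drawn without the least abundant ones, and each gene had the spread typical of its level. These shares therefore do not cover scarce or unusually variable members. Alternatives used DESeq2 1.42.0, limma 3.58.1, other scalings, filters and units of replication. Plots used matplotlib 3.10.9.

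Members and lists were chosen with earlier results of these data known. Named in full were up to 2 members per role with the highest control RPKM, those at an unadjusted p under 0.05 or without overlap, and those counted in fewer than 4 animals. Of the pathway lists, genes past the threshold and up to 4 more per list by p were to be named; Nlgn2 and Gad1, and the remaining members given by animal, were chosen after their values were seen. Values of some single listed genes are not reported here.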

Additional observations from a re-analysis of the deposited data

Results flagged for a closer look

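Within each genotype, the levels of the listed receptor and anchor genes and of the named genes of inhibitory transmission were screened for 1 animal far from the other 3, by Dixon's test at 95%. Of 76 sets of 4 animals, 4 were flagged, and chance flags about 1 in 20 such sets. Gabrg3 was at 1.54 CPM in mutant a, with the other mutants at 0.0313 to 0.207. Gabrq was at 3.55 CPM in control d with the other controls at 0, and at 5.34 CPM in mutant c with the other mutants at 0 to 0.223. Gabrr2 was at 0.431 CPM in mutant b with the other mutants at 0.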

How the results depend on the processing

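The 19 tested receptor and anchor genes were refitted under 17 alternatives, 8 of which left out an animal. Of 323 refits, 291 kept their direction and their side of the threshold and 31 changed sign, over 8 genes. DESeq2 called 1 of the 19, Gabra2, and no other alternative called any; leaving out an animal gave Gabra2 edgeR adjusted p-values of 0.276 to 0.561. Over all genes 40 were called; DESeq2 called 156, the 11 libraries taken as samples 84, limma voom with an animal correlation 76, and leaving out an animal 17 (without mutant b) to 44, with 18 without control b, 22 without mutant a and 25 without mutant d. Of the other inhibitory genes 1 was called; DESeq2 called 4 (among them Kctd16, Neto2 and Slc6a11), the 11 libraries 3, voom 3 and leaving out an animal 0 to 1. With the label number as a replicate block on the libraries, 43 genes and 3 of the other inhibitory genes were called; same-numbered samples had correlated deviations of 0.126, -0.145, 0.0330, 0.139 and -0.0331 and came from different animals, so the numbers did not pair them. The log2 fold changes that changed sign all had intervals that included 0. Gabrb1 was 0.0020 with RLE scaling, 0.0058 with upper-quartile scaling, 0.012 with library totals and 0.0016 in DESeq2, and -0.29 to 0.16 without 1 animal. Gabrb2 was -0.066 with 11 libraries, -0.22 with the replicate block and -0.0045 in voom, and -0.25 to 0.46 without 1 animal. Glra1 was 0.54 in voom and -1.59 to 0.73 without 1 animal, Glra2 -0.024 to 0.30, and Gabarapl2 -0.083 to 0.039. Glrb was -0.021 with the deeper library of each animal and -0.26 to 0.19 without 1 animal. Gabarap was -0.0036 with 11 libraries, -0.032 with the replicate block and -0.035 to 0.13 without 1 animal, and Gabarapl1 was 0.019 with the block. The cause was not tested. With coding length in place of exon length 17 of 19 levels moved and Gabra2 was the fifth in order in place of Glra2; the first 4 were in the same order under each length. Gabrg3, the rho genes other than Gabrr1, Gabre, Gabrq and Glra4 rest on few counts or few libraries, and deeper libraries did not always count them.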

Other observations

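Control animals c and d differed from a and b in several of these genes. They held the upper values for Glra2 (111 and 126 CPM against 72.3 and 65.0), Glrb (146 and 141 against 65.8 and 76.8), Gphn (121 and 132 against 65.7 and 87.7) and Gabra4 (19.2 and 18.8 against 2.14 and 2.90), and the lower values for Gabra3 (1.54 and 3.45 against 19.0 and 15.2). The 2 pools of control b did not always share this split. They were at 54.2 and 102 CPM for Glra2, 63.0 and 124 for Glrb, and 17.7 and 6.17 for Gabra3. For Gphn they were at 85.5 and 94.3 CPM, and for Gabra4 at 2.89 and 2.91. The split between animals was seen after the values were known and was not tested.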
